A study of Homo sapiens with 18 samples.

Results

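MT-CO1, MT-CO2, MT-CO3, MT-ATP6, MT-ATP8 and MT-CYB are the mRNAs of the human mitochondrial genome that encode subunits of cytochrome c oxidase, ATP synthase and the cytochrome bc1 complex. They were taken by gene symbol, and make up 6 of the 13661 genes in the polysome profiling table and 6 of its 13 mitochondrially encoded mRNAs. The rule uses no measured value, although the group was proposed with results of these data known. The other 7 mitochondrial mRNAs encode subunits of complex I and serve here as the nearest group for comparison.

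The study used HEK293, an established human embryonic kidney cell line, exposed for 12 h to the DMSO vehicle alone or to the tetracycline antibiotic minocycline at 100 µM. The groups used here are the vehicle-treated cells only, with no genetic change stated: 3 biological replicates, each split on a sucrose gradient into a monosome, a light polysome and a heavy polysome pool, giving 9 libraries. The other 9 libraries, of cells given minocycline, are not analysed here. Each replicate number thus names 1 gradient, with its own batch label.

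Mitochondrial mRNAs are transcribed inside the organelle as long precursors, from which most are released by cutting out the tRNAs that flank them. They are translated by mitochondrial ribosomes, which differ in composition and size from the cytosolic ribosomes whose stacking on an mRNA defines the monosome and polysome zones of a gradient. Cytochrome c oxidase, complex IV, passes electrons from cytochrome c to oxygen, ATP synthase uses the proton gradient to make ATP, and the bc1 complex, complex III, passes electrons from ubiquinol to cytochrome c. Each of these complexes also contains subunits encoded in the nucleus and made on cytosolic ribosomes. The position of a mitochondrial mRNA in these gradients was measured, and the particle it travelled with was not.

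In the GENCODE release 29 annotation of GRCh38, the 6 mRNAs lie on the same strand of chromosome M, each as 1 exon that begins with its ATG start codon. MT-CO1 (ENSG00000198804) spans chrM:5904-7445 and is 1542 nt long, MT-CO2 (ENSG00000198712) spans chrM:7586-8269 and is 684 nt, and MT-CO3 (ENSG00000198938) spans chrM:9207-9990 and is 784 nt. MT-ATP8 (ENSG00000228253) spans chrM:8366-8572 and is 207 nt, MT-ATP6 (ENSG00000198899) spans chrM:8527-9207 and is 681 nt, and MT-CYB (ENSG00000198727) spans chrM:14747-15887 and is 1141 nt. MT-ATP8, MT-ATP6 and MT-CO3 overlap in a chain, which bears on how their reads can be told apart. The stretch shared by MT-ATP8 and MT-ATP6 is 46 bases long (chrM:8527-8572, plus strand, 5′ to 3′). Its capitals mark the start codon of MT-ATP6 and the stop codon of MT-ATP8, which lie in different reading frames:
MT-ATP8/MT-ATP6 overlap: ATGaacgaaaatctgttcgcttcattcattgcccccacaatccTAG
At the junction of MT-ATP6 with MT-CO3 (chrM:9190-9224, plus strand), the capitals mark the stop codon of the first, whose last A opens the start codon of the second:
MT-ATP6/MT-CO3 junction: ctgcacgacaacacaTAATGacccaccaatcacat
The last 30 annotated bases show a second feature of these mRNAs. MT-CO3 and MT-CYB stop on a lone T, in capitals, which the tail added to the RNA completes to a stop codon, while MT-CO1 ends in AGA (chrM:9961-9990, chrM:15858-15887 and chrM:7416-7445, plus strand):
MT-CO3 end: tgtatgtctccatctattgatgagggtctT
MT-CYB end: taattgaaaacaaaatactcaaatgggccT
MT-CO1 end: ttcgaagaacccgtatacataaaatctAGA

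Reads of 75 nt cannot always separate these mRNAs from copies in the nucleus. Of all windows of 75 nt along MT-CO1, 36.6% occurred letter for letter in annotated nuclear transcripts, in MTCO1P12 on chromosome 1 (chr1:631074-632616) and in MIR6723 within it. For MT-ATP6 the share was 28.0% (MTATP6P1), for MT-CO3 14.6% (MTCO3P12) and for MT-CO2 10.5% (MTCO2P12). No window of MT-ATP8 or MT-CYB had such a copy. None of these nuclear copies has a row in the table (0 rows), and how the counting treated reads that fit more than 1 place is not given in the sources used here, so the counts of the 4 genes with copies are uncertain to that extent. Likewise, reads within the bases shared by MT-ATP8 and MT-ATP6 may have been given to either or to neither.

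Libraries held 13447139 to 24441159 reads assigned to the 13661 genes listed, and shares of a library refer to these reads. The 6 mRNAs took 21.4%, 2.36% and 14.8% of them in monosome replicates 1, 2 and 3. Their light polysome shares were 2.26%, 0.146% and 1.99%, and their heavy polysome shares 0.209%, 0.0697% and 0.212%. Replicate 2 was thus the lowest of its fraction for this group in all 3 fractions. Across all genes kept, light polysome replicate 2 also stood apart: its mean correlation was 0.894 with the other light libraries and 0.940 with the heavy ones, whereas light replicates 1 and 3 correlated at 0.985 (Pearson, log2 normalized counts). Monosome replicate 2 had a mean correlation of 0.932 with the other monosome libraries, which correlated with each other at 0.965. The 9 markers of HEK293 cells were all detected, with summed normalized counts of 8108 to 20200 per library.

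Values below are the authors' normalized counts, that is, reads divided by 1 size factor per library. Each gene's share of a gradient is its normalized count in a fraction over the sum of the 3 fractions, so it depends on how the fractions were scaled to each other. The 3 pools of a gradient come from the same lysate, but each is a library with its own size factor. A difference between them is described here as one of position in the gradient. Within 1 gradient it cannot be told apart from a difference between libraries or in their scaling. Fractions were compared by limma on log2(normalized count + 1) over 12720 genes, with Benjamini-Hochberg adjustment and a threshold of 0.05. All 6 mRNAs passed the filter on low counts.

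**Figure D1:**
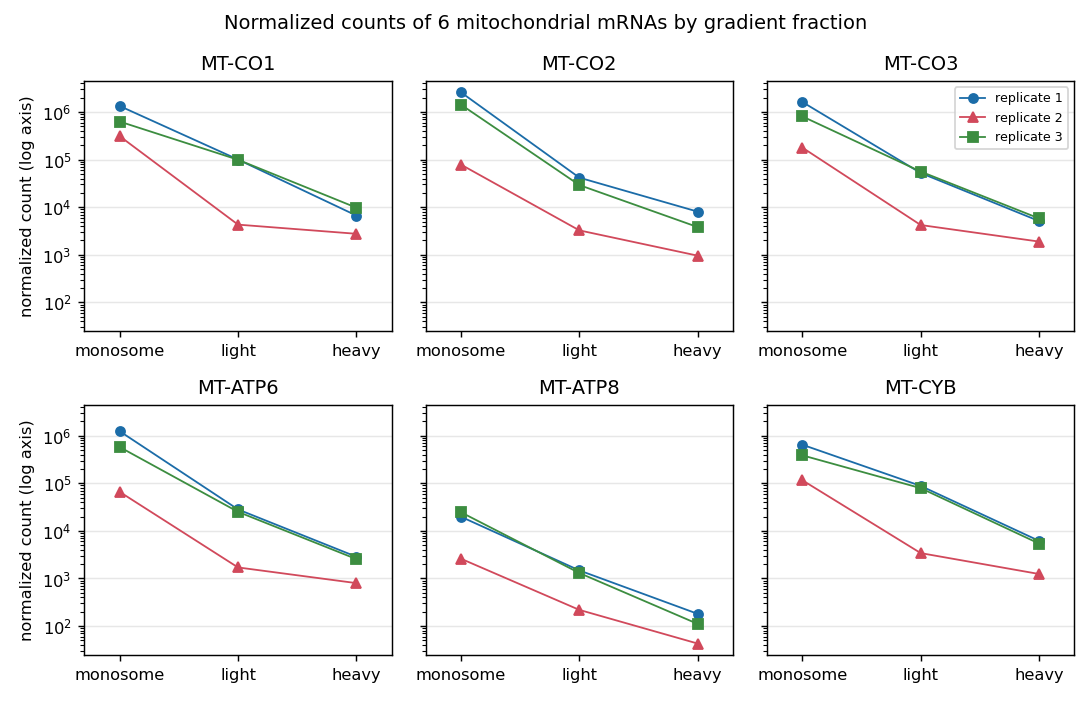
Normalized counts (log axis) of the 6 mRNAs in the monosome, light polysome and heavy polysome pools, with 1 line per gradient (replicates 1 to 3). Every line descends from monosome to heavy polysomes, and replicate 2, drawn with triangles, is the lowest in each pool for each of the 6 mRNAs.

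MT-CO1 encodes the subunit of complex IV that holds the site where oxygen is reduced. Its normalized counts in monosome replicates 1, 2 and 3 were 1337167, 310164 and 630003. The light polysome counts were 100368, 4301 and 99421, and the heavy polysome counts 6690, 2762 and 9782. The monosome pools held the highest value in every gradient and did not overlap with either polysome group, whereas light replicate 2 lay below 2 of the heavy values. The monosome count exceeded the light one 13.3-fold, 72.1-fold and 6.34-fold in gradients 1, 2 and 3. The log2 difference of light polysomes from monosomes was -4.19 (SE 1.05, adjusted p = 0.0134 by limma), and that of heavy polysomes -6.82 (SE 1.05, adjusted p = 0.000249). Without replicate 1, or without monosome replicate 1 alone, the light call was lost, with an adjusted p of 0.0507 or 0.0664. It was kept with the replicate number as a block (adjusted p = 0.00280 by limma).

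MT-CO2 encodes the subunit that takes electrons from cytochrome c. Its monosome counts were 2585468, 78343 and 1423774, the widest spread among the 6 mRNAs, 33.0-fold from lowest to highest. Light polysomes held 41764, 3257 and 29180 and heavy polysomes 8071, 958 and 3826. Monosome replicate 2 was far below the other monosome libraries but still above every polysome library, so monosomes did not overlap with the polysome groups. MT-CO2 had the lowest log2 difference of all 12720 genes in both comparisons with monosomes: -5.38 for light polysomes (SE 1.22, adjusted p = 0.00817 by limma) and -7.74 for heavy polysomes (SE 1.22, adjusted p = 0.000292). Its monosome counts exceeded the light ones 61.9-fold, 24.1-fold and 48.8-fold, so gradient 2 had the smallest of the 3 ratios here and the largest for MT-CO1.

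MT-CO3 encodes the third core subunit of complex IV, which holds no metal site. Monosome counts were 1621100, 178399 and 807373, light polysome counts 52360, 4220 and 56063, and heavy polysome counts 5121, 1895 and 5822. Monosomes were again above and clear of both polysome groups, and light replicate 2 fell below heavy replicates 1 and 3. The log2 difference was -4.73 for light polysomes (SE 0.99, adjusted p = 0.00527 by limma) and -7.33 for heavy polysomes (SE 0.99, adjusted p = 0.000121).

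MT-ATP6 encodes the membrane subunit through which protons pass in ATP synthase. Its monosome pools gave normalized counts of 1241555, 65983 and 577397, its light polysome pools 28289, 1707 and 25149, and its heavy polysome pools 2868, 799 and 2561. The pattern followed that of MT-CO3, with monosomes clear of the polysome groups and light replicate 2 below 2 heavy values. The differences from monosomes were -5.08 on the log2 scale for light polysomes (SE 1.10, adjusted p = 0.00643 by limma) and -7.65 for heavy polysomes (SE 1.10, adjusted p = 0.000171). Of all genes, only MT-CO2 had a lower heavy polysome difference.

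MT-ATP8 encodes a small membrane subunit of ATP synthase and had the lowest counts of the 6. Monosomes gave 19772, 2594 and 24576, light polysomes 1476, 219 and 1303, and heavy polysomes 181, 42.9 and 111. Behind the lowest of these values stood 95 reads. MT-ATP8 was the one member whose 3 pools did not overlap at all, since light replicate 2 stayed above the highest heavy library. Its log2 difference from monosomes was -3.85 in light polysomes (SE 0.83, adjusted p = 0.00641 by limma) and -6.81 in heavy polysomes (SE 0.83, adjusted p = 6.49e-05). The monosome counts exceeded the light ones 13.4-fold, 11.9-fold and 18.9-fold, so replicate 2 did not stand out in this ratio.

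MT-CYB encodes the cytochrome b subunit of complex III, which carries the ubiquinol sites. Monosome counts were 647055, 115780 and 387203, light polysome counts 88167, 3414 and 79123, and heavy polysome counts 6186, 1243 and 5424. Its monosomes did not overlap with the polysome pools, but monosome replicate 2 came closer to light replicates 1 and 3 than in the other members. MT-CYB had the smallest of the 6 differences in both comparisons: -3.42 for light polysomes (SE 1.09, adjusted p = 0.0418 by limma) and -6.47 for heavy polysomes (SE 1.09, adjusted p = 0.000446). The light call was lost in 9 of 20 alternative settings, with adjusted p from 0.0515 with scaling to total reads to 0.155 without monosome replicate 1; among them were both count models (0.0662 by edgeR, 0.0587 by DESeq2). The other settings that ended it left out replicate 1 (0.0881), monosome replicate 3 (0.110), light replicate 2 (0.108), heavy replicate 1 (0.0540) or heavy replicate 3 (0.0531). With the replicate number as a block, the light call of MT-CYB was kept (adjusted p = 0.00350 by limma).

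Counted together, 6 of 6 mRNAs were lower in heavy polysomes than in monosomes, beside 24.4% of all genes called lower, with a median log2 difference of -7.07 against 0.13 for all genes. In light polysomes 6 of 6 were lower than in monosomes, beside 10.2% of all genes, with a median of -4.46 against 0.04. These comparisons share the monosome libraries. Leaving out replicate 2 altogether kept 6 of 6 calls in both, with medians of -7.49 and -4.20. Without monosome replicate 2 alone the medians were -8.03 and -5.25, and without light replicate 2 alone the light polysome median was -3.23 with 5 of 6 called. Scaling each library to its total reads raised the median of all genes to 1.39 for heavy and 1.22 for light polysomes, and the members' medians became -5.79 and -3.26, with 6 and 5 of 6 called. That scaling also moved the balance of calls over all genes, from 3145 higher and 3101 lower to 7735 higher of 8837 called in heavy polysomes, and from 1077 higher of 2380 to 7390 higher of 7756 in light polysomes.

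**Figure D2:**
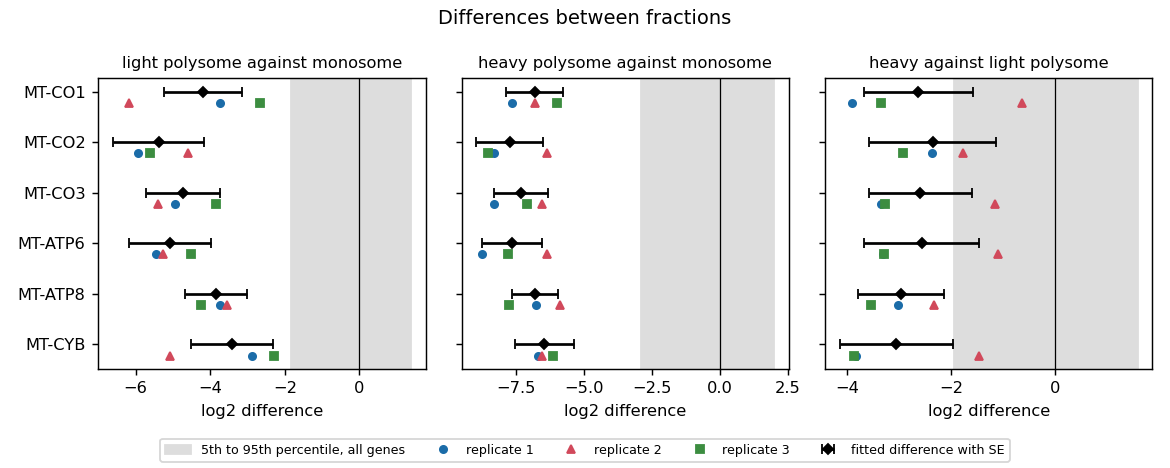
Log2 differences between fractions for each mRNA: fitted value with SE (diamonds) and the difference within each gradient (circle, triangle and square for replicates 1 to 3), over the range from the 5th to the 95th percentile of all genes (gray). Each comparison places the fitted values of the 6 mRNAs below that range. Against monosomes they run from -5.38 to -3.42 for light and from -7.74 to -6.47 for heavy polysomes. For heavy against light polysomes they run from -3.05 to -2.36, and there replicate 2 lies nearer to 0 than the other gradients.

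Between the polysome pools the picture depended on which libraries were included, those of replicate 2 among them. In each of the 3 gradients all 6 mRNAs were lower in heavy than in light polysomes, but 2 of 6 passed the test, beside 17.5% of all genes called lower. MT-ATP8 had a log2 difference of -2.96 (SE 0.83, adjusted p = 0.0177 by limma) and MT-CYB one of -3.05 (SE 1.09, adjusted p = 0.0454). MT-CO1 stood at -2.63 (adjusted p = 0.0663), MT-CO3 at -2.59 (adjusted p = 0.0583), MT-ATP6 at -2.56 (adjusted p = 0.0857) and MT-CO2 at -2.36 (adjusted p = 0.148), with the same test. In MT-CO1 the light count exceeded the heavy count 15-fold and 10.2-fold in gradients 1 and 3 but 1.56-fold in gradient 2. For MT-ATP8 the ratio was 8.16-fold, 5.09-fold and 11.7-fold, and for MT-CO2 5.17-fold, 3.40-fold and 7.63-fold. With the replicate number as a block, 6 of 6 passed, with limma adjusted p from 0.00217 for MT-ATP8 to 0.0174 for MT-CO1. The same count was reached without replicate 2 (median -3.30) and without light replicate 2 (median -3.87). It was 0 of 6 by limma without replicate 1 or without replicate 3, where 2 and 3 mRNAs had an unadjusted p under 0.05. It was also 0 without heavy replicate 2 (median -2.10), light replicate 1 or light replicate 3 alone. In each of these fits 1 mRNA had an unadjusted p under 0.05. With all libraries, edgeR called 5 and DESeq2 6. Genes called lower among all 12720 were 2332 with the block, 3845 without replicate 2 and 3286 without light replicate 2. They were 2608 by edgeR and 2812 by DESeq2. In the limma fits with 0 of 6 mRNAs, the counts over all genes fell as well. Without heavy replicate 2, light replicate 1 or light replicate 3, 1224, 819 and 591 genes were called lower. Without replicate 1 or replicate 3, 0 genes were called lower, and 2490 and 3100 had an unadjusted p under 0.05 in either direction.

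The mean ribosome load, MRL, is the authors' score that weights a gene's share of a gradient by 1 in monosomes, 2.5 in light and 6 in heavy polysomes, so it cannot fall below 1. It rests on position in the gradient and on weights that stand for cytosolic ribosomes. The 6 mRNAs had MRLs of 1.07 ± 0.04 (MT-CO2), 1.07 ± 0.03 (MT-ATP6), 1.09 ± 0.03 (MT-CO3), 1.14 ± 0.05 (MT-ATP8), 1.15 ± 0.10 (MT-CO1) and 1.21 ± 0.11 (MT-CYB) (SD, n = 3 gradients), where the median over all genes was 3.21. Each was lower than the median gene of its gradient in 3 of 3 gradients. By limma, 6 of 6 were called lower, beside 24.7% of all genes, with log2 differences from -1.57 to -1.39 and adjusted p from 7.69e-05 to 8.67e-05. The size of these differences is set by the weights: with 1, 2 and 3 in place of 1, 2.5 and 6, their median was -0.92 in place of -1.50, again with 6 of 6 lower. In the authors' deposited table, MT-CO2 and MT-ATP6 ranked 1 and 2 from the lowest MRL and MT-CYB ranked 34, and all 6 carried the monosome class with that pool leading in 3 of 3 replicates. The same deposited table ranked MT-CO2 1, MT-CO3 2, MT-CO1 4, MT-ATP6 5 and MT-CYB 8 by abundance summed over the fractions, with MT-ATP8 at 364.

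Within the group, the order by light polysome share was not stable between gradients. MT-CYB had 11.9%, 2.83% and 16.8% of its signal in light polysomes in gradients 1, 2 and 3, and MT-CO1 had 6.95%, 1.36% and 13.4%. MT-CO2 went the other way, with 1.58%, 3.95% and 2.00%, as did MT-ATP8 with 6.89%, 7.66% and 5.01%. In gradients 1 and 3 MT-CYB was thus the member with the highest light share and MT-CO2 the one with the lowest, while in gradient 2 MT-ATP8 was highest and MT-CO1 lowest. MT-CO3 had 3.12%, 2.29% and 6.45% and MT-ATP6 2.22%, 2.49% and 4.16%. Of the 15 pairs of members, 14 had the same order of light over monosome ratios in gradients 1 and 3, and 5 had it in all 3 gradients: MT-CYB above MT-CO1, MT-CO3 and MT-ATP6, and MT-ATP8 above MT-CO2 and MT-ATP6. For MRL the counts were 13 and 4. Differences between members in log2 ratios do not depend on how libraries are scaled, whereas shares and MRLs do; with MRLs from total read scaling the counts were also 13 and 4. These differences are described and were not tested; an exact sign-flip test over 3 gradients has a smallest two-sided p of 0.25.

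The size of the MT-CYB and MT-CO2 contrast shows how far the gradients differ. On the log2 scale the light over monosome ratio of MT-CO2 minus that of MT-CYB was -3.08 in gradient 1, 0.50 in gradient 2 and -3.32 in gradient 3. MT-ATP6 and MT-ATP8, which share the overlap printed above, kept their order. MT-ATP6 minus MT-ATP8 was -1.71, -1.70 and -0.28 for the light over monosome ratio and -1.99, -0.45 and -0.03 for the heavy over monosome ratio.

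**Figure D3:**
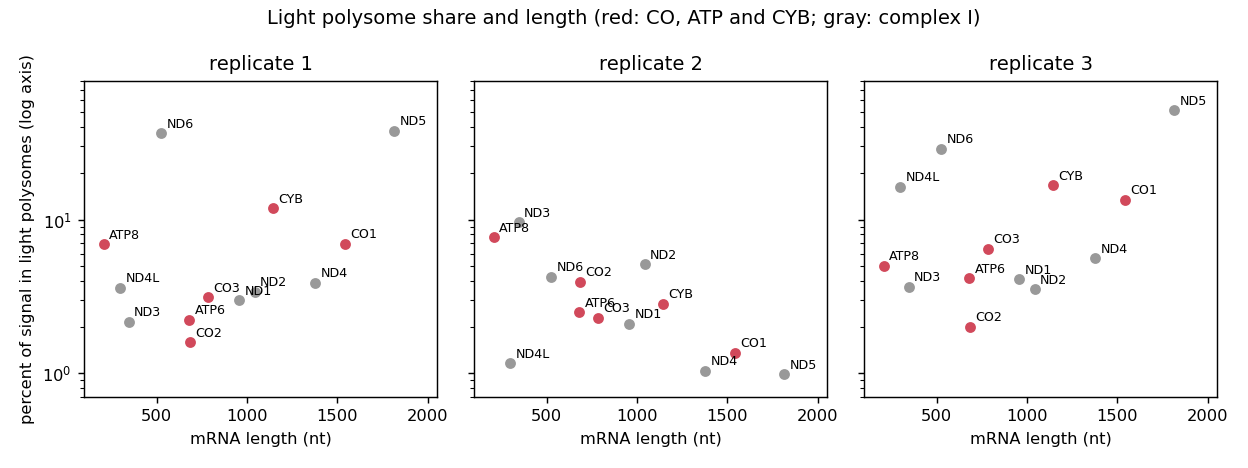
Percent of each mitochondrial mRNA's signal found in light polysomes (log axis) against mRNA length in nt, in gradients 1 to 3, with the 6 CO, ATP and CYB mRNAs in red and the 7 complex I mRNAs in gray. In gradients 1 and 3 MT-CYB (11.9% and 16.8%) is the highest of the red points and MT-CO2 the lowest, and in gradient 2 the long MT-CO1 (1.36%) is the lowest of them.

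Length did not order these shares in the same way in each gradient. Across the 13 mitochondrial mRNAs, Spearman's rho between length and light polysome share was 0.38, -0.59 and 0.26 in gradients 1, 2 and 3, and 0.21, -0.48 and 0.06 without MT-ND5, the longest. These are descriptions over genes that share libraries and precursor transcripts.

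MT-ND5 and MT-ND6, both complex I subunits, exceeded all 6 members in light polysome share in gradients 1 and 3. MT-ND5 had 38.1%, 0.99% and 51.5% of its signal there and MT-ND6 36.5%, 4.24% and 29%. By limma, 7 of 7 complex I mRNAs were lower in heavy polysomes than in monosomes, as were 6 of 6 members, beside 24.4% of all genes. In light polysomes 6 of 7 were lower, beside 10.2% of all genes. The exception was MT-ND5 (log2 difference -2.39, SE 1.38, adjusted p = 0.248 by limma). By MRL, 7 of 7 complex I mRNAs were called lower than the median gene, as were 6 of 6 members, beside 24.7% of all genes. The complex I values ran from 1.08 to 1.55. MT-ND1, MT-ND2, MT-ND3 and MT-ND4 lay within the members' range of 1.07 to 1.21. Summed over genes, light polysomes held 4.01%, 2.21% and 6.96% of the members' signal and 6.59%, 1.88% and 7.88% of that of the complex I mRNAs. The members' share was the lower one in gradients 1 and 3 and the higher one in gradient 2. Without MT-ND5 and MT-ND6, the complex I sum was 3.37%, 1.99% and 4.44%, below that of the members in all 3 gradients. This sum leaves out the complex I mRNAs with the highest light shares in gradients 1 and 3, and no member was left out. The choice of genes itself thus lowers the sum in gradients 1 and 3. The difference between the groups was not tested.

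The make-up of the mitochondrial pool differed between gradients. In monosomes MT-CO2 made up 28.6%, 6.35% and 28.0% of the reads of the 13 mitochondrial mRNAs, and MT-CO1 14.8%, 25.2% and 12.4%. MT-CO2 was thus the largest member in replicates 1 and 3 and gave way to MT-CO1 in replicate 2. Relative to the mean of monosome replicates 1 and 3, replicate 2 was lower 25.6-fold for MT-CO2, 13.8-fold for MT-ATP6, 8.55-fold for MT-ATP8, 6.81-fold for MT-CO3, 4.47-fold for MT-CYB and 3.17-fold for MT-CO1. Among the complex I mRNAs this ratio ran from 58.1-fold for MT-ND3 to 0.87 for MT-ND4L, so the drop in replicate 2 was uneven over the whole pool. The same replicate was low in light polysomes as well, by 24.5-fold for MT-CYB, 23.2-fold for MT-CO1 and 6.35-fold for MT-ATP8. Its part in the differences between gradients was not tested further.

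**Figure D4:**
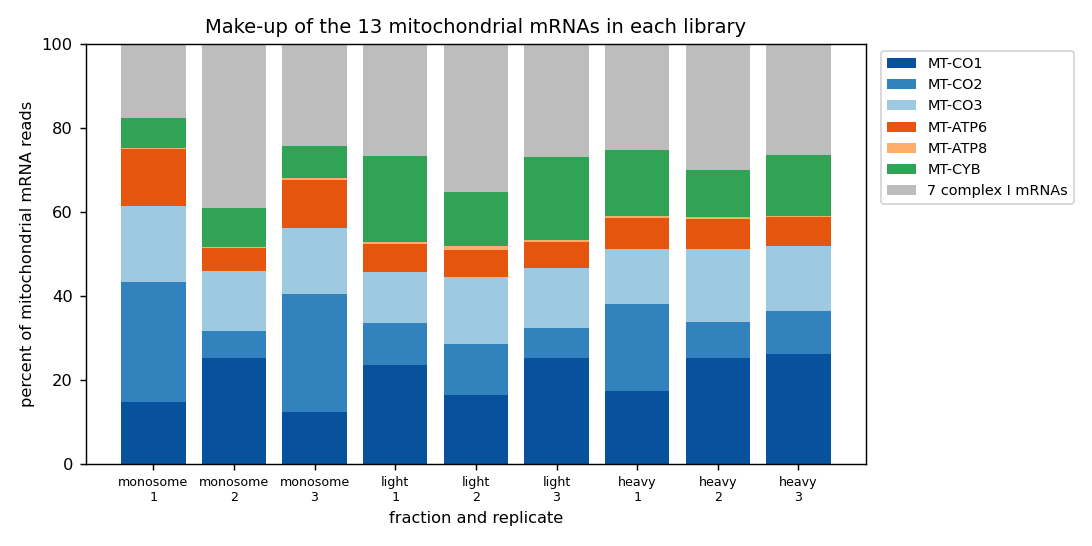
Percent of the reads of the 13 mitochondrial mRNAs taken by each CO, ATP and CYB mRNA, with the 7 complex I mRNAs summed in gray, in the 9 libraries. MT-CO2 fills 28.6% and 28.0% in monosome replicates 1 and 3 and 6.35% in replicate 2, and MT-CYB takes 20.7%, 12.9% and 19.9% in the light polysome libraries.

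Light polysomes had another make-up. MT-CO1 took 23.6%, 16.3% and 25.1% of the mitochondrial mRNA reads there and MT-CYB 20.7%, 12.9% and 19.9%. MT-CO2 stood at 9.81% and 7.35% in replicates 1 and 3, and at 12.3% in replicate 2, where its monosome share had been lower. MT-CO3 had a like share in both pools, 14.5% to 17.9% in monosomes and 12.3% to 16.0% in light polysomes.

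Levels between genes were compared per kilobase of mRNA. By the mean of the 3 monosome libraries, the order was MT-CO2, MT-CO3, MT-ATP6, MT-CO1, MT-CYB and MT-ATP8, from 1992001 ± 1834334 for MT-CO2 to 75591 ± 55829 normalized counts per kilobase for MT-ATP8 (SD, n = 3). With SDs close to the means, no neighbours in that order differed beyond their spread. Within libraries the ratio of MT-CO2 to MT-CO3 was 1.83, 0.50 and 2.02 and that of MT-ATP6 to MT-CO1 2.10, 0.48 and 2.08, so both orders turned in replicate 2. The ratios of MT-CO3 to MT-ATP6 (1.13, 2.35 and 1.21), of MT-CO1 to MT-CYB (1.53, 1.98 and 1.20) and of MT-CYB to MT-ATP8 (5.94, 8.10 and 2.86) stayed above 1 in all 3.

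MT-ATP8 and MT-ATP6 are carried on 1 message, and yet their counts differed widely. Divided by the bases that no other gene shares, 161 for MT-ATP8 and 634 for MT-ATP6, the count of MT-ATP6 exceeded that of MT-ATP8 15.9-fold, 6.46-fold and 5.97-fold in monosomes. Light polysomes gave ratios of 4.87, 1.98 and 4.90, and heavy polysomes 4.03, 4.73 and 5.85. How reads in the overlap were assigned is not given, and reads of 75 nt leave few positions that lie in MT-ATP8 alone, so the level of MT-ATP8 is uncertain on this scale.

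Over all 9 libraries, the profile nearest to the mean of the 6 members outside the group was that of MT-ND2 (root mean square log2 difference 0.44), followed by MT-ND4 (0.52) and MT-ND3 (0.85). The nearest nuclear profiles were those of SELENOW, which encodes selenoprotein W (0.87), SMIM27 (0.90), RPS29, a cytosolic ribosomal protein (0.94), COMMD6 (0.98) and COPS9, a COP9 signalosome subunit (0.98). SELENOW had 95.7 ± 0.3% of its signal in monosomes and SMIM27 94.0 ± 1.2%, levels within the 88.5% to 96.9% of the members. Their likeness is one of profile only.

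The nuclear partners of these subunits showed a wider spread of positions. Of 16 nuclear complex IV subunits listed, 13 were in the table and kept. By limma, 7 of the 13 were lower in heavy polysomes than in monosomes, where 24.4% of all genes were lower and 24.7% higher. None was higher (0 by limma, 0 at an unadjusted p under 0.05, and 0 by edgeR or DESeq2). Their median MRL was 2.28 against 3.21 for all genes. COX7A2L, a supercomplex assembly factor, and COX6B1, which faces the intermembrane space, had the lowest MRLs, 1.80 ± 0.16 and 1.94 ± 0.25, and log2 differences of -3.17 (adjusted p = 9.86e-05) and -2.80 (adjusted p = 0.00136). COX5A and COX4I1 had the highest, 3.11 ± 0.70 and 3.35 ± 0.80, with differences of -0.12 and 0.12 that did not pass the test.

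Genes for building complex IV were lower in heavy polysomes in 19 of 26 cases and higher in 4, with a median MRL of 2.33. Of all genes, 24.4% were lower and 24.7% higher in that comparison. COX17, a copper chaperone, had an MRL of 1.39 ± 0.04 and a log2 difference of -5.04 (SE 0.65, adjusted p = 9.11e-05 by limma), and HIGD2A one of 1.48 ± 0.17. At the other end, SCO2, another copper chaperone, had 4.15 ± 0.55, and TACO1, which activates translation of MT-CO1, had 4.68 ± 0.42 with a difference of 2.58 (SE 0.41, adjusted p = 0.000301). TACO1 mRNA was higher in heavy polysomes and MT-CO1 mRNA was lower, and a relation between the 2 was not tested.

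Of 22 nuclear ATP synthase genes, 8 were lower and 4 higher in heavy polysomes, beside 24.4% lower and 24.7% higher of all genes, with a median MRL of 2.84. ATP5MK and ATP5MF, small membrane subunits like MT-ATP8, had MRLs of 1.37 ± 0.06 and 1.52 ± 0.03, while ATP5F1C and ATP5F1B, the gamma and beta subunits of the catalytic head, had 4.07 ± 0.91 and 4.46 ± 0.41. Of 16 nuclear complex III genes, 7 were lower and 4 higher, the latter a share close to that of all genes, with a median of 2.75, from 1.69 ± 0.25 for UQCRH, the hinge protein, to 4.92 ± 0.44 for UQCRC1, a core subunit. Of 29 nuclear factors for mitochondrial gene expression, from DNA maintenance and transcription to RNA processing and translation, 6 were lower and 11 higher in heavy polysomes, and 6 were lower and 2 higher in light polysomes than in monosomes, beside 10.2% lower and 8.47% higher of all genes. Their median MRL was 3.58, and the difference of this list from the others was not tested. FASTK had the lowest MRL among them, 1.64 ± 0.18, and SLIRP, which stabilises mitochondrial mRNAs, had 2.29 ± 0.11. Every nuclear gene in these lists had a higher mean MRL than the highest of the 6 members, MT-CYB at 1.21.

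**Figure D5:**
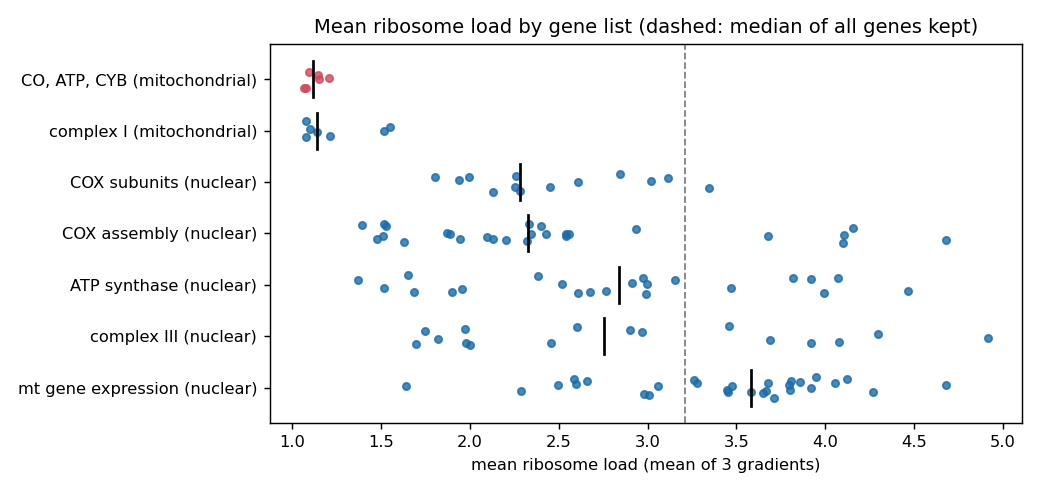
Mean ribosome load (mean of 3 gradients) of each gene kept, by list, with the list median as a black bar and the median of all genes, 3.21, as a dashed line. The 6 CO, ATP and CYB mRNAs (red) lie between 1.07 and 1.21, below every nuclear gene of the 5 lists, which reach from 1.37 to 4.92. The 7 mitochondrial complex I mRNAs lie between 1.08 and 1.55.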

How the data were processed

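RNA of the monosome, light polysome and heavy polysome pools of 3 gradients of vehicle-treated cells was measured as 9 single-end libraries of 75 nt reads. The submitters' processing notes name featureCounts and GRCh38, and the sources used here do not give the aligner or the counting options. The authors' deposited signal is, for each library, the reads of a gene over that library's size factor, and whole reads were recovered for 100% of values (tolerance 0.01 reads). The deposited percent values are shares of the summed signal of a gradient and were recomputed to within 5.5e-08. MRL, a score deposited by the authors, was recomputed to within 4.61e-09 over the genes kept. The authors' deposited log2 values and adjusted p-values, whose contrast and test are not stated, are used for nothing here. Reads per library bound the counting error: a 95% Wilson interval of the mitochondrial share was at most 0.0214 percentage points to either side. These intervals cover counting error only.

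Kept genes had 10 or more recovered reads on average and reads in each gradient (12720 of 13661, 941 removed). limma 3.58.1 (trend, R 4.3.3) compared fractions over the 9 libraries with fraction as the only term, on log2(signal + 1), which understates the change of low genes; for MRL it tested log2 MRL minus the median gene over the 3 gradients. edgeR 4.0.16 and DESeq2 1.42.0 on recovered reads, other scalings, pseudocounts of 0.1 and 10, no filter, a replicate block and leaving out each library were alternatives. In simulated data with 200 genes changed 4-fold, the heavy polysome test over 12720 genes recovered 91.5% of them. The simulation set the same spread parameter for every gene and held no replicate effect or outlying library. Its rate therefore does not describe the power of the test in these libraries. Every replicate was split into the 3 fractions and has its own batch label, so the numbers pair the samples; deviations of same-numbered libraries correlated at -0.05 to 0.14 (monosome and light), -0.54 to 0.10 (monosome and heavy) and 0.09 to 0.39 (light and heavy). Named were all members, every complex I mRNA, the 2 highest and 2 lowest genes by MRL of each list, not all of which are reported, and the 5 nearest profiles. COX4I2, COX6A2 and COX7A1 have no row in the table used here, and FASTKD4 is listed there as TBRG4, itself in the list. The members and lists were chosen with earlier results of these data known.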

Additional observations from a re-analysis of the deposited data

How the results depend on the processing

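Direction was the same in every setting run for each of the 6 mRNAs in each comparison. The calls of 6 of 6 lower in heavy polysomes against monosomes, and of 6 of 6 with lower MRL, held in every setting. In light polysomes against monosomes, MT-CYB lost its call in 9 settings and MT-CO1 in 2, as given beside those genes. The number of mRNAs lower in heavy than in light polysomes, 2 in the reported fit, was 4 with scaling to total reads, 5 by edgeR and 6 by DESeq2, and ran from 0 to 6 when a replicate or library was left out by limma; where it was 0, 1 to 3 had an unadjusted p under 0.05. With the replicate block, which pairs the 3 fractions of a gradient, it was 6; the block changed no other call of the 6 mRNAs. Counts over all genes moved more: for heavy polysomes against monosomes from 6246 to between 3137 and 7814 with a replicate or library left out, for light polysomes against monosomes from 2380 to between 562 and 4507, and to 7756 with scaling to total reads. For heavy against light polysomes the count of 4097 went to between 0 and 7651; it was 0 by limma without replicate 1, where 2490 genes had an unadjusted p under 0.05, 1 without replicate 3, and 7651 without replicate 2. Genes called by MRL, 5937, became 3637 on the logit of the polysome percent and 3422 to 7264 with a replicate left out. MRL without the light polysome libraries, a setting chosen after seeing the data, gave 6 of 6 lower with a median log2 difference of -1.78. Centring on the mean in place of the median gene made 3537 of 6250 called genes higher, against 2798 of 5937. Differences among the 6 mRNAs were not tested.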
